A study of Drosophila melanogaster with 5 samples.

Results

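A promoter region called only in dopamine neurons was defined here as a stretch of open chromatin within 1 kb of an annotated transcription start site that carried a peak in both dopamine neuron libraries and in none of the 3 GABA neuron libraries. Of the 80590 regions in the deposited comparison table, 32104 were annotated as promoter within 1 kb, and 3363 of these met the rule, at 2354 genes. The regions were selected on the peak calls of the same 5 libraries, so that the absence of GABA peaks, the presence of dopamine peaks and every count of calls below describe the selection and were not tested.

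The libraries were made by ATAC-seq, in which the Tn5 transposase inserts sequencing adapters where DNA is accessible, from nuclei of adult Drosophila melanogaster heads sorted by flow cytometry for nuclear GFP. Nuclear GFP was expressed from a UAS transgene under TH-Gal4 for the 2 dopamine libraries and under vGAT-Gal4 for the 3 GABA libraries. The flies were kept on standard cornmeal food. TH-Gal4 carries regulatory sequence of ple, the tyrosine hydroxylase gene, and labels the cells in which that sequence is active. Whole heads were used, which also hold cuticle, epidermis, fat body, muscle, glia and eyes, and the labels do not say whether libraries of a type came from separate cultures of flies.

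The chromatin at a promoter opens when transcription factors and the transcription machinery displace nucleosomes around the start site, and many promoters of broadly used genes are open in nearly every cell type. Dopamine neurons make dopamine from tyrosine in a pair of enzymatic steps, load it into vesicles and take it up again after release. The epidermis of insects uses the same enzymes to make the catecholamines that harden and darken the cuticle.

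The dopamine lists held 69464 and 69940 peaks and the GABA lists 84055, 81638 and 107219, an interval with several summits being listed once per summit. Fold enrichment, the height of a peak over the background modelled by the peak caller, started at 1.80 and 1.93 in the dopamine lists and at 1.25 to 1.28 in the GABA lists, so that weaker peaks were listed in GABA neurons. The highest −log10 q was 58.3 and 63.2 in the dopamine lists and 413 to 616 in the GABA lists. The sources used here do not give the settings of the peak caller, and equal settings cannot be assumed. The study also lists a higher share of duplicate reads in both dopamine libraries than in any GABA library. The part of library quality in these differences was not tested.

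Regions called only in dopamine neurons made up 10.5% of all promoter regions and 8.42% of all regions in the table. Regions called only in GABA neurons, in all 3 GABA lists and in neither dopamine list, made up 6.82% of promoter regions (2189 regions) and 13.2% of all regions. The most frequent pattern at promoters was a peak in all 5 lists (11815 regions), and 4213 promoter regions overlapped no listed peak. Promoters accounted for 49.6% of the 6784 regions called only in dopamine neurons (Wilson 95% interval 48.4 to 50.8%), for 20.6% of the 10629 called only in GABA neurons (19.8 to 21.4%) and for 39.8% of the whole table (39.5 to 40.2%). Among the 16601 regions called in all 5 lists the share was higher, 71.2% (70.5 to 71.9%). These intervals cover counting error over regions only, and neighbouring regions are not independent.

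By gene, 2354 of the 12738 genes with a promoter region had at least 1 called only in dopamine neurons (18.5%), and 1748 had at least 1 called only in GABA neurons (13.7%). Both kinds occurred at 131 genes. A single dopamine-only region was found at 1674 genes, and 465 genes had 2 such regions. The regions were spread over the chromosome arms, from 9.82% of the promoter regions on 3L (626 regions) to 11.7% on 2R (800 regions), with 9.97% on X (522 regions).

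The dopamine-only promoter regions were narrow and of modest signal. Their median width was 161 bp (quartiles 108 and 264 bp), compared with 217 bp for GABA-only and 482 bp for promoter regions called in all 5 lists. The authors' mean signal over all 5 libraries, in reads divided by size factors, had a median of 92.7 at dopamine-only, 90.7 at GABA-only, 329 at shared and 47.9 at uncalled promoter regions. The dopamine-only values ranged from 10.6 to 1363 and overlapped those of every other class.

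The annotated start site lay inside 813 of the dopamine-only regions, or 24.2% (Wilson 95% interval 22.8 to 25.7%). This share was 6.53% (5.57 to 7.65%) at GABA-only promoter regions, 56.4% (55.5 to 57.3%) at promoter regions called in all 5 lists and 28.5% over all promoter regions. Upstream of the start site lay 35.1% of the dopamine-only and 30.7% of the GABA-only regions, and downstream lay 40.7% and 62.8%. Since both sets were defined by the same peak lists, no test was made of these shares.

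**Figure D1:**
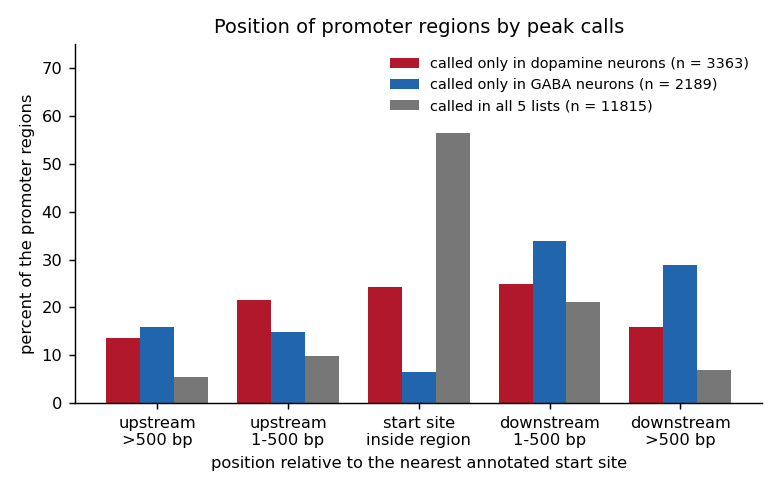
Share of promoter regions (percent, vertical axis) in 5 classes of position relative to the nearest annotated start site, for regions called only in dopamine neurons (red), only in GABA neurons (blue) and in all 5 lists (grey). The start site lay inside 24.2% of the dopamine-only, 6.53% of the GABA-only and 56.4% of the shared regions.

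In the dopamine lists themselves, the regions stood near the middle or slightly above it, depending on the peak taken. The highest peak over each region had a median fold enrichment of 2.93 in dopamine library 1 (quartiles 2.40 and 3.61, range 1.80 to 7.74) and of 3.64 in library 2 (quartiles 2.84 and 4.67, range 1.93 to 10.2). These medians lay at percentiles 61.1 and 61.4 of the respective lists. At promoter regions called in all 5 lists, the medians were 3.61 and 4.78, so the selected regions were lower in both libraries. Regions over the start site had medians of 3.08 and 3.98, and those downstream of it 2.70 and 3.30. All of these values are of the highest peak. With the peak nearest the centre of the region, the medians over all members were 2.70 and 3.30, at percentiles 53.1 and 53.6.

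The 2 dopamine libraries ranked the regions alike, with a Spearman correlation of fold enrichment of 0.76 across the 3363 regions, compared with 0.90 across the 11815 shared promoter regions. The regions are not independent replicates, and these values are descriptions. The percentiles of the 2 lists were within 10 of each other at 54.2% of regions and over 30 apart at 10.2%. Both libraries placed a summit inside the region at 3236 of 3363 regions, with a median offset of 13 bp between the strongest summits and an offset of at most 50 bp at 79.8%.

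Not every region stood apart from the peaks of GABA neurons. At 566 regions (16.8%) the interval of at least 1 dopamine library reached beyond the region and touched a GABA peak farther along. This was so in both libraries at 259 regions and in only 1 of them at 307, with 351 regions in library 1 and 474 in library 2. The other 2797 regions (83.2%, Wilson 95% interval 81.9 to 84.4%), at 2035 genes, lay under intervals that touched no GABA peak in either dopamine library and are called stand-alone below. The stand-alone regions had median fold enrichments of 2.78 and 3.41 and the others 3.83 and 5.58, counted by the highest peak anywhere in the interval. With the peak nearest the centre of the region, the medians became 2.70 and 3.19 for stand-alone and 2.86 and 3.53 for the other regions. The split was made after the values had been seen.

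**Figure D2:**
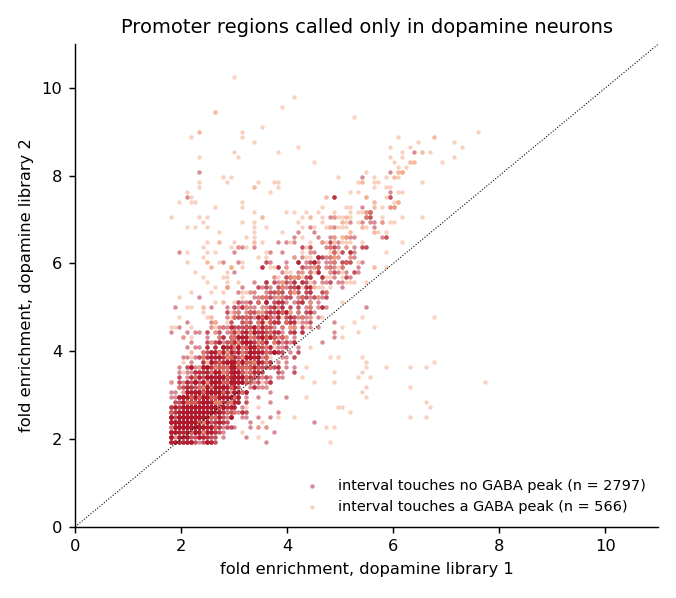
Fold enrichment of the highest peak over each of the 3363 regions in dopamine library 1 (horizontal axis) and library 2 (vertical axis), with 1 point per region and the line of equal values dotted. Stand-alone regions are dark, and the 566 regions whose interval touched a GABA peak are pale and hold most of the highest values in library 2.

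The nearest GABA peak was usually close. Measured from the edge of the region, it lay at a median of 509 bp in GABA library 1, 508 bp in library 2 and 479 bp in library 3, and at a median of 376 bp over the 3 lists together. It lay within 200 bp at 29.5% of regions and within 500 bp at 59.9%. It was more than 2000 bp away at 259 regions (7.70%) and more than 5000 bp away at 46 regions (1.37%).

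**Figure D3:**
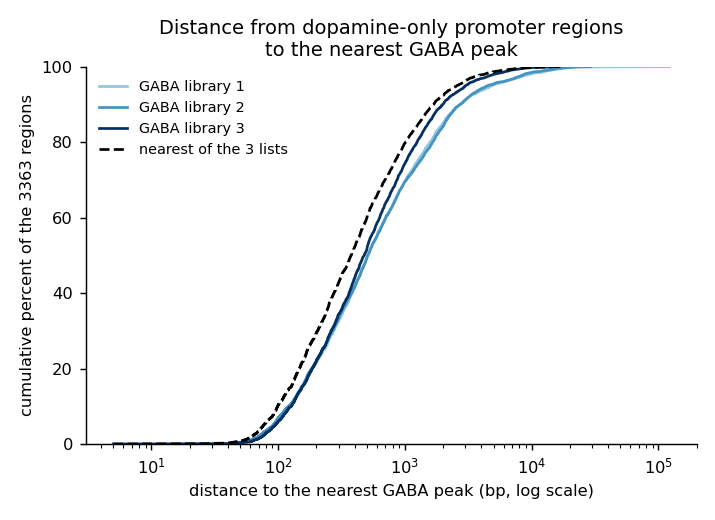
Cumulative share of the 3363 regions (percent) by distance to the nearest GABA peak (bp, log scale), for each GABA list and for the nearest of the 3 (dashed). The 3 lists run close together, with medians of 509, 508 and 479 bp.

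The 5 regions farthest from any GABA peak were all on the X chromosome. The region at X:3835451-3835672, 408 bp upstream of a start of ec (echinus, a gene of eye development), had fold enrichments of 4.21 and 5.69, and its nearest GABA peaks were 16822, 17239 and 16561 bp away. A stretch at Cda4, which encodes a chitin deacetylase-like protein, held 3 of the 5. The Cda4 region at X:22632761-22632882, 51 bp upstream of the start site, had fold enrichments of 2.78 and 4.10, and no promoter region of this gene overlapped a GABA peak. The fifth region lay 39 bp upstream of CG42246 with fold enrichments of 2.63 and 4.10.

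At the limits of the rule, 47 regions inside it shared the lowest −log10 q, 1.42 in dopamine library 2, where their fold enrichment was 1.93. In library 1 these regions had fold enrichments from 1.80 to 4.81. The first 3 of them along the chromosome arms lay at CG15443, with 2.55 in library 1, at CG15629, with 1.88, and at hoe1, with 1.80. Just outside it were promoter regions of asRNA:CR44368, Syb and CG8547, which had a single GABA peak with a −log10 q of 1.31 and a GABA fold enrichment of 1.36, 1.49 and 1.47. Altogether 1122 promoter regions had peaks in both dopamine lists and in exactly 1 GABA list (223, 478 and 421 in GABA libraries 1, 2 and 3). At these limits, a single peak near the lowest −log10 q of its list decided whether a region met the rule. The regions named here were picked for that, and heights were not compared over all regions inside and outside the rule.

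Of the genes that make and handle dopamine, ple and Ddc each had a region in the set. The ple region (3L:6720273-6720711, 748 bp upstream of the start site of tyrosine hydroxylase, the rate-limiting enzyme) had fold enrichments of 4.96 and 6.14 in the dopamine libraries. No GABA library had a peak there, the nearest lying 406 bp away, and the region stood alone. The other promoter region of ple had a peak in all 5 lists. At Ddc, which encodes dopa decarboxylase, the region at 2L:19119566-19119747, 559 bp downstream of the start site, had fold enrichments of 4.28 and 5.80, but these belonged to a broader interval that touched a GABA peak. At the summit inside the Ddc region they were 3.83 and 4.89, and the other 2 promoter regions of Ddc had peaks in all 5 lists.

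The remaining dopaminergic markers had no promoter region called only in dopamine neurons. Both promoter regions of DAT, the dopamine reuptake transporter, had peaks in all 5 lists. A peak in every list does not mean equal height. The study reported peaks in DAT as significantly more open in dopamine than in GABA neurons. The single promoter region of Vmat, the vesicular loader of monoamines, had peaks in dopamine library 1 and in all 3 GABA lists. Pu, the first enzyme of tetrahydrobiopterin synthesis, had 3 promoter regions and none in the set. No member was found at the 4 dopamine receptor genes.

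No region of the set lay at a gene of the GABAergic, cholinergic, glutamatergic, serotonergic or octopaminergic lists. These held 2, 3, 1, 2 and 2 genes with a promoter region, too few to set against the share over all genes. The 10 pan-neuronal genes had 59 promoter regions, none of them in the set, compared with 10.5% of all promoter regions. By gene, 0 of 10 has a Wilson 95% interval up to 27.8%, which includes the 18.5% of all genes, and 4 of the 10 (40.0%, compared with 13.7% of all genes) had a region called only in GABA neurons. Of these genes, elav, which encodes a neuronal RNA-binding protein, had peaks in all 5 lists at 4 of 5 promoter regions, brp (a protein of the presynaptic active zone) at 5 of 11 and nSyb (a synaptic vesicle protein) at 2 of 3. The chromatin at these neuronal genes was thus accessible in both neuron types.

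Among 8 glial genes 2 had a member (25.0%, Wilson 95% interval 7.15 to 59.1%, compared with 18.5% of all genes). Eaat1, a glutamate transporter of glia, had 2 regions (fold enrichments 3.53 and 4.32 in the intervals of both) and Indy, a citrate transporter also found outside glia, had 4, from 2.03 to 3.61 in library 1 and from 3.07 to 4.55 in library 2. The defining glial gene repo had none among its 5 promoter regions. Of 16 photoreceptor genes, 3 had a region in the set (18.8%, near the share over all genes) and 9 had one called only in GABA neurons (56.3%, compared with 13.7% of all genes). These 3 were Rh5, which encodes a rhodopsin (over the start site, 3.61 and 3.87), ninaE, which encodes the major rhodopsin (2 regions, 2.78 and 4.10 in both), and ninaC, which encodes a myosin of photoreceptors (2.70 and 2.39). None of the 4 fat body genes with a promoter region, 1 of 3 hemocyte genes (crq, a phagocytic receptor, 1.95 and 2.96) and 1 of 5 muscle genes (Tm1, a tropomyosin, 2.55 and 3.07) had a region in the set, numbers too small to set against the share over all genes.

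Genes of the epidermis and of chitin had the highest share among the cell type lists. Of 9 such genes, 5 had a region in the set (55.6%, Wilson 95% interval 26.7 to 81.1%, compared with 18.5% of all genes), and 15 of their 37 promoter regions were members (40.5%, compared with 10.5% of all). They were grh, mmy, knk, pio and verm, of which mmy alone had a member over a start site (1 of 9 genes, 11.1%). All 11 promoter regions of grh, which encodes the epidermal transcription factor Grainy head, had peaks in both dopamine lists, compared with 5, 5 and 6 in the GABA lists. Of its 5 members, the highest stand-alone region (2R:17814837-17815171, 493 bp downstream of a start site) had fold enrichments of 5.18 and 6.60, with the nearest GABA peak 5199 bp away. At mmy, which encodes an enzyme that makes the precursor of chitin, the region over the start site had 5.26 and 6.14, and knk, a chitin-organizing gene, had 4 members from 2.10 to 3.38 in library 1 and from 2.62 to 3.41 in library 2.

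In the list for cuticle tanning and pigment, 3 of 6 genes had a member, namely ple, Ddc and stw. The last encodes a laccase that oxidizes catechols in the cuticle, and its region, with 5.41 and 7.17, belonged to an interval that touched a GABA peak. Because ple and Ddc act in both tissues, their regions are counted under dopamine synthesis and under tanning or epidermal use alike. The structural cuticle proteins did not share this pattern, with 9 of 67 genes (13.4%, 7.23 to 23.6%). The highest of these was Cpr97Eb, with 4.88 and 6.60 over its start site. The part that sorted nuclei of epidermal cells had in any of these regions was not tested.

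The cytochrome P450 genes, which encode oxidases of hormones, lipids and foreign compounds, had a high share in the set. Of 65 P450 genes with a promoter region, 27 had a member (41.5%, Wilson 95% interval 30.4 to 53.7%), compared with 18.5% of all genes, and 5 had a region called only in GABA neurons. Counted by region, 39 of 140 P450 promoter regions were members (27.9%), 17 of them over the start site and 34 of them stand-alone. Their median fold enrichments were 3.83 and 5.01, above the 2.93 and 3.64 of the whole set.

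Among the stand-alone P450 regions, Cyp305a1 (3L:19812555-19812899) had fold enrichments of 5.56 and 6.94. Cyp4d20 (3L:2478394-2478819, over the start site) had 5.86 and 6.60, and Cyp4d8 (3L:7496098-7496441, over the start site) had 4.81 and 7.06 with no GABA peak within 9278 bp. Cyp18a1, which inactivates the moulting hormone ecdysone, had a pair of adjacent regions at its start site with 4.21 and 6.03. Cyp6a20, known for its effect on aggression in male flies, had 4.43 and 5.12 over the start site. The weakest P450 region was at Cyp4aa1, with 2.10 and 2.05.

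The other classical families of detoxification were then counted, a choice made after the P450 result had been seen. Of 28 glutathione S-transferase genes, 11 had a member (39.3%, 23.6 to 57.6%), and of 23 UDP-glycosyltransferase genes 8 had one (34.8%, 18.8 to 55.1%). A region called only in GABA neurons was found at 2 of the former (7.14%) and at 5 of the latter (21.7%), compared with 13.7% of all genes. GstE5 had 3.98 and 5.12 over its start site, and GstO3 had 4.58 and 5.80. Ugt35C1 had 3.98 and 4.89 over its start site, with the nearest GABA peak 3031 bp away. Both families are clustered in the genome, so that neighbouring genes are not independent, and a region between a pair of genes is annotated to 1 of them.

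Immune genes were counted in the same way after some of their regions had been seen. Of the 11 genes for peptidoglycan recognition proteins, which sense bacterial cell walls, 5 had a member (45.5%, 21.3 to 72.0%) and none had a region called only in GABA neurons. PGRP-LC, the receptor of the Imd pathway, had 5 members between 3.91 and 5.11 in library 1 and between 5.46 and 6.03 in library 2. Several of them lay under the same dopamine interval and were not separate observations. The highest, with 5.11 and 6.03, was not stand-alone, and its nearest GABA peak was 92 bp away. Of the 12 Bomanin genes, short secreted peptides induced through the Toll pathway, 8 had a member (66.7%, 39.1 to 86.2%). The members of all 8 lay in a single stretch, 2R:18381754-18390647. These genes are neighbours and not independent, which the interval does not allow for. At BomS4 the start site region had 3.46 and 4.44, and at BomT1 3.76 and 4.89. A run of 5 consecutive promoter regions at BomBc1, BomS1, BomS4 and BomBc2 on 2R was composed of members, as was a run of 5 at Drsl4 and Drsl5, genes related to the antifungal peptide Drosomycin, on 3L.

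**Figure D4:**
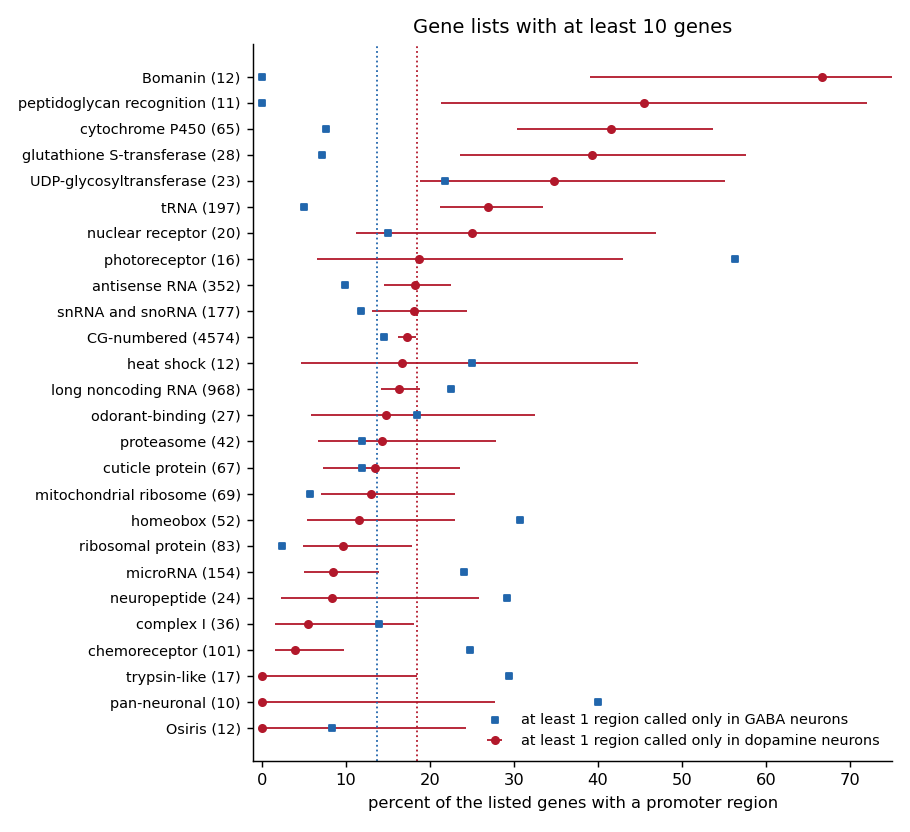
Percent of the genes of each list that had at least 1 promoter region called only in dopamine neurons (red circles, bars are Wilson 95% intervals) or only in GABA neurons (blue squares), for lists with at least 10 genes, whose number stands in brackets. Dotted lines mark the shares over all genes with a symbol, 18.5% and 13.7%, and cytochrome P450 genes stand at 41.5% while chemoreceptors stand at 3.96%.

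Transfer RNA genes, which are short and transcribed by RNA polymerase III, also exceeded the share over all genes. Of 197 tRNA genes, 53 had a member (26.9%, Wilson 95% interval 21.2 to 33.5%) and 10 had a region called only in GABA neurons (5.08%). By region, 64 of 356 were members (18.0%), with median fold enrichments of 3.08 and 3.64. Many tRNA genes have near-identical copies whose reads the alignment can misplace, so single tRNA genes are uncertain.

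Other families had shares below that of all genes. Of 101 genes for chemoreceptors and related channels, 4 had a member (3.96%, 1.55 to 9.74%), namely Gr97a, Ir56b, Or2a and Or67a, while 25 had a region called only in GABA neurons (24.8%). Of 154 microRNA genes 13 had a member (8.44%) and 37 a GABA-only region (24.0%). Of 52 homeobox genes 6 had a member (11.5%, 5.40 to 23.0%, which includes the share over all genes), the highest by mean percentile at mirr, a patterning gene, with 4.43 and 6.37, and 16 a GABA-only region (30.8%). Ribosomal protein genes (8 of 83, 9.64%) and genes of mitochondrial complex I (2 of 36, 5.56%) were also low in the set, and 2 ribosomal protein genes had a GABA-only region (2.41%).

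The other noncoding genes were nearer to the share over all genes than tRNA and microRNA genes. Of 968 long noncoding RNA genes 158 had a member (16.3%, 14.1 to 18.8%), compared with 218 that had a GABA-only region (22.5%), and of 352 antisense RNA genes 64 had a member (18.2%). Of 177 snRNA and snoRNA genes 32 had one (18.1%). Of the 4574 genes known only by a CG number, 790 had a member (17.3%).

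Of 9 clock genes, 4 had a member (44.4%, Wilson 95% interval 18.9 to 73.3%, compared with 18.5% of all genes), namely Clk, Pdp1, sgg and vri. Clk, a core activator of the clock, had a region whose interval reached 3.53 in library 1 and 9.10 in library 2 and touched a GABA peak, and vri, a repressor of Clk, had a stand-alone region with 4.28 and 4.44. Of 20 nuclear receptor genes 5 had a member (25.0%, 11.2 to 46.9%), the highest by mean percentile at kni and eg, both over the start site, with 4.43 and 6.26 and with 4.58 and 5.80. Of 24 neuropeptide genes 2 had a member (8.33%, 2.32 to 25.8%), and the NPF region at 3R:16610120-16610324 had 4.58 and 5.92. Jra, the fly Jun, had a pair of regions with 3.68 and 4.67 and with 3.01 and 2.84, and no promoter region of Jra overlapped a GABA peak. Of 12 heat shock genes 2 had a member (16.7%, 4.70 to 44.8%), Hsp83 (2.63 and 3.07) and Hsp26 (1.88 and 1.93). Of 42 proteasome genes 6 had a member (14.3%, 6.72 to 27.8%), with Rpt2 highest by mean percentile (3.46 and 5.12) and a region of Rpt4 higher in library 1 alone (4.81 and 1.93). All of these intervals but that of the clock genes include the share over all genes. A share by gene does not allow for the number of promoter regions, and the 9 clock genes had 60. By region, 9 of these 60 were members (15%), compared with 10.5% of all promoter regions. Nuclear receptor genes were above the share over all genes by gene but below it by region, with 6 of 78 (7.69%).

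Of 69 mitochondrial ribosomal protein genes 9 had a member (13.0%, 7.02 to 23.0%) and of 27 odorant-binding protein genes 4 (14.8%, 5.92 to 32.5%), both intervals including the share over all genes. No member was found at the 17 genes with the prefix of trypsin-like proteases or at the 12 Osiris genes.

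By the mean of their percentiles in both lists, 11 of the 12 highest regions were not stand-alone. They were at CG10570 (7.59 and 8.99), lncRNA:CR44769, CG6429, hebe (2 regions, 6.76 and 8.88 in both), Spn77Ba, lncRNA:CR43334, Cerk, lncRNA:CR45646, smash and lncRNA:CR44156, between 84 and 386 bp from the nearest GABA peak. At CG10570 the summit inside the region reached 4.73 and 4.67 only, and at smash 2.03 and 2.73. At each of these 11 regions the highest summit of the interval lay outside the region in both libraries. The exception was asRNA:CR45999 (3R:4395363-4395993, over the start site), with 6.39 and 8.53 at the summit inside the region.

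Among stand-alone regions, a selection made after the values had been seen, asRNA:CR45999 was followed by the start site region of hgo (2L:11135888-11136491), with 5.94 and 8.08 and a mean signal of 935. The gene hgo encodes homogentisate dioxygenase, which acts in the breakdown of tyrosine, and none of its promoter regions overlapped a GABA peak. Hpd, which encodes an earlier enzyme of the same pathway, 4-hydroxyphenylpyruvate dioxygenase, had 5.33 and 7.62 over its start site and likewise no promoter region with a GABA peak, although its interval touched one. The crc gene, which encodes the fly ATF4 factor of the stress response, had a pair of regions upstream of a start site with 5.94 and 7.62 and with 5.41 and 7.97. At dysf, a bHLH-PAS factor of the trachea, the start site region had 6.01 and 7.28, and at Doa, a protein kinase, 5.48 and 7.17. CG4797 had the highest mean signal among the regions named here, 1338, with 5.94 and 7.28 over its start site.

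**Figure D5:**
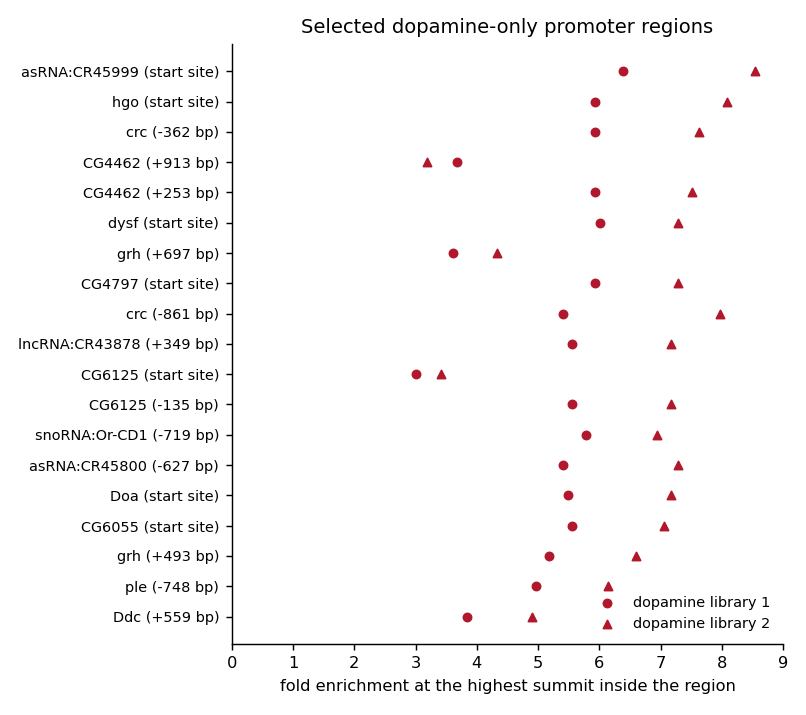
Fold enrichment at the highest summit inside the region in dopamine library 1 (circles) and library 2 (triangles) for the 15 highest stand-alone regions, the ple and Ddc regions and the 2 highest grh regions, each with its distance from the start site. No GABA library had a peak at any of them, and asRNA:CR45999 is highest with 6.39 and 8.53.

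Several genes held many of the regions. The snu gene, which encodes an ABC transporter needed for the lipid barrier of the cuticle, held 9 members among 12 promoter regions, from 2.33 to 5.41 in library 1 and from 2.73 to 7.85 in library 2, 4 of them stand-alone. Acsl, a long-chain acyl-CoA synthetase, held 7 among 13, all stand-alone, with 4.58 and 5.80 at the highest. CG6231 held 7 among 11 and mtd 7 among 24, again all stand-alone. Tlk (a protein kinase), hebe and ken (a transcriptional repressor) held 6 each, and for ken these were all of its promoter regions.

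Members also lay next to each other. Of the 3363 regions, 1585 (47.1%) belonged to 640 runs of at least 2 consecutive promoter regions that were all members, and 21 runs held 5 or more. Runs were not counted in other classes of promoter region, so whether this share is particular to the set was not tested. The longest run, of 11 regions, covered 9851 bp at Mtpbeta, ken and TM4SF on 2R (2R:23867927-23877777), and the next, of 10 regions, covered 3343 bp at CG31189, CG31207 and CG7079 on 3R. Regions of a run often lay under the same dopamine interval and were not separate observations. The 4 members at CG31189, for example, shared an interval height of 7.51 in library 2.

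The other promoter regions of the same genes were often open in GABA neurons. Of the 2354 genes, 1293 (54.9%, Wilson 95% interval 52.9 to 56.9%) also had a promoter region called in all 5 lists, compared with 703 of the 1748 genes with a GABA-only region (40.2%, 37.9 to 42.5%). Among all 12738 genes with a promoter region, 7313 had one called in all 5 lists, so this was not particular to the genes of the set. Of the 1907 members at those 1293 genes, 821 (43.1%) were nearest to another transcript than the shared region was. The remaining members were nearest to the same transcript as a shared region.

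At 628 of the 2354 genes (26.7%, 24.9 to 28.5%), no promoter region overlapped a GABA peak. The rule itself fixed this at 303 of them, which had a single promoter region, and 325 of the 2051 genes with more than 1 promoter region remained (15.8%). Of the 1748 genes with a GABA-only region, 799 (45.7%) had no promoter region with a dopamine peak. Of the 1425 genes with a GABA-only region and more than 1 promoter region, 476 (33.4%) had none. The dopamine lists were fewer and shorter than the GABA lists and started at a higher fold enrichment. Having no dopamine peak thus asked for less than having no GABA peak, and the difference between these shares was not tested. The 628 genes held 897 of the members, of which 306 (34.1%) contained the start site. Of the 628 genes, 450 encoded proteins (71.7%), compared with 2012 of the 2354 genes and 10738 of all 12738 genes with a promoter region. Their median fold enrichments were 2.93 and 3.64, equal to those of the whole set. Besides hgo, Hpd and CG4797, the highest included CG6125 (a pair of regions in an interval of 5.56 and 7.17) and lncRNA:CR43878 (5.56 and 7.17, with the nearest GABA peak 1279 bp away).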

How the data were processed

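Per the labels, the authors used bcl2fastq 1.8.4, Bowtie2, SAMtools, Picard, MACS2, DESeq2 and ChIPseeker with the build BDGP6. The study's methods state alignment to the release 6 genome, removal of duplicates, peak calling in each library and counting by featureCounts. The MACS2 settings and the construction of the tested regions are not given in the sources used here. For each peak the authors deposited a fold enrichment (a ratio over modelled background), a −log10 p, a −log10 q and a score derived from it. The deposited table gives each region its mean signal across the 5 libraries (counts divided by size factors, with no value per library) and the nearest start site. Its log2 fold change, standard error, statistic and p-values are the authors' own comparison and were not used. Read depth per region and library is therefore unknown here.

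Peak starts were converted to count from 1, and a peak was taken to call a region when they overlapped by at least 1 bp. The value of a region in a dopamine library was that of the highest peak over it, and its percentile was taken within that list. Intervals are Wilson 95% intervals over genes or regions and cover counting error only. No test was made, because the rule used the calls of all 5 libraries. The regions, gene lists and named items were chosen with earlier results of these data known, and 4 of the 41 lists (Gst, Ugt, PGRP and Bomanin) were added after regions had been seen. Cyclophilins and the P450 reductase, whose symbols begin alike, were kept out of the P450 and cuticle lists.

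Named regions were the 12 with the highest mean percentile, 3 just inside and 3 just outside the rule, every member at neuronal, glial and photoreceptor lists and the 2 highest of each other list, the 5 genes with the most members (ties kept) and the 5 members farthest from a GABA peak. The text gives values for most of them and counts for the rest. The 15 highest stand-alone regions and single members of runs and families were added after their values had been seen. Of the promoter regions with a gene number, 99.8% matched RefSeq (Release 6), which gave the gene types. Sequences, GC content and motifs were not analysed here. Analyses used Python 3.11.15, numpy 2.4.6, pandas 2.3.3, scipy 1.17.1 and matplotlib 3.10.9, and the overlap and distance functions were tested on simulated data.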

Additional observations from a re-analysis of the deposited data

How the results depend on the processing

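Leaving out each library in turn gave 3586 to 4071 dopamine-only promoter regions, 11.2 to 12.7% of promoter regions, 2490 to 2804 genes and 2468 to 3017 GABA-only promoter regions. These counts can only rise when a library is left out, since the rule then asks for less. No paired analysis was possible because no result comes from a test. Without any peak of the other type within 500 bp, 1349 dopamine-only regions (4.20%) at 992 genes and 1265 GABA-only regions were left. Among regions over the start site these were 813 (8.90%), 789 genes and 143. With a mean signal of at least the median of all regions they were 1928 (9.82%), 1554 genes and 1274. With lists of equal size the dopamine-only share rose to 12.2% and the GABA-only count fell to 1425, and with peaks of −log10 q of at least 5 the dopamine-only share was 7.91%, when GABA-only regions (2472) were nearly as many as dopamine-only ones (2538). Within 500 bp of the start site, GABA-only regions numbered 1208. When no promoter region of a gene could overlap a GABA peak, an alternative chosen after seeing the data, 628 genes were left. The share of genes with a member stayed above that of all genes under the same alternative for cytochrome P450 (26.2 to 43.1%), glutathione S-transferase (14.3 to 50%), UDP-glycosyltransferase (17.4 to 47.8%), tRNA (12.2 to 34.5%) and epidermal genes (11.1 to 66.7%, the lowest over the start site) in each of 15 alternatives, in which the share of all genes ran from 6.19 to 22.1%, and below it for chemoreceptor, microRNA, homeobox and pan-neuronal genes. The stand-alone and summit alternatives were chosen after seeing the data. The motif alternative was not run, since no sequence was used here. Reads per region and library would be needed to tell a region without a GABA peak from one just under the threshold of calling.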
